A study of Mus musculus with 24 samples.

Results

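The cytosolic ribosomal protein genes of mouse embryonic stem cells (mESCs) were described across the study's 8 sample groups. They were taken by symbol, as every gene named Rpl or Rps with a number and at most a short suffix, plus Rplp0, Rplp1, Rplp2 and Rpsa. This gave 84 of the 22609 gene symbols in the files, 51 of the large subunit and 33 of the small subunit. Poly-A RNA of E14TG2a cells, a feeder-independent mESC line of the 129/Ola strain, had been sequenced in 24 libraries, 3 per group. All cells grew in serum, and those of the 5 mESC groups also had LIF, the cytokine that keeps mESCs undifferentiated. One mESC group was untransfected, and the others stably carried a short hairpin: shNMC, a control with no mammalian target, shMed12, shCdk8 or shRing1b. The 3 RA groups carried shNMC, shMed12 or shCdk8 and were taken after 24 h without LIF in 1e-06 M all-trans retinoic acid (RA). The labels do not say how many hairpin sequences or clones stand behind a group, nor whether replicates were separate cultures. The p-values therefore measure the spread between these libraries, which may be technical.

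Ribosomal proteins assemble with ribosomal RNA in the nucleolus into a small subunit, which decodes mRNA, and a large subunit, which joins amino acids. Their mRNAs are among the most abundant of a growing cell and typically begin with a run of pyrimidines, the TOP motif, through which their translation follows mTOR activity. Several members have paralogues with tissue-bound expression, and most have many processed pseudogenes, which makes short reads from them hard to place. Med12 and Cdk8 belong to the kinase module of Mediator, and Ring1b, encoded by Rnf2, is the ubiquitin ligase of Polycomb complex PRC1. The comparisons ask what each hairpin and RA did to the mRNAs of this machinery.

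Total gene counts, in units of 1e+06 reads, were 27.4 to 34.1 in the 6 libraries of the untransfected and shRing1b groups, against 37.8 to 57.3 in the other 18. Reads with several alignments, which the files list apart from the genes, made at most 21.7% of all counts in the 6 libraries and 44.1% to 49.1% in the 18. Each hairpin's target fell in its own comparison (log2 -1.68 and -1.30 for Med12, -2.06 and -2.20 for Cdk8 and -1.27 for Rnf2). The library labelled shRing1b replicate 3 nevertheless held 207 CPM of Rnf2, against 52.4 and 64.2 CPM in the other shRing1b libraries and 221 to 303 CPM in untransfected cells. Of 10 pluripotency markers, 10 exceeded 1 CPM in each of the 8 groups. Their summed level was 3939 to 6117 CPM in mESCs and 1882 to 2883 CPM after RA. CPM is a gene's count scaled to 1e+06 gene counts of its library after TMM, a method that takes most genes as unchanged.

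Of the 84 members, 83 passed the filter on low counts. Rpl26, a large subunit protein, had 2 reads over all 24 libraries and was not tested. Together the members took 1.36% to 1.73% of the gene counts of a library, and the groups of each comparison overlapped. The mean share was 1.55% ± 0.17 (SD, n = 3) in untransfected cells, 1.57% ± 0.072 with shNMC, 1.59% ± 0.096 with shMed12, 1.57% ± 0.12 with shCdk8 and 1.51% ± 0.025 with shRing1b. After RA it was 1.58% ± 0.096 with shNMC, 1.58% ± 0.038 with shMed12 and 1.47% ± 0.11 with shCdk8. Of all counts in a file, entries that name no gene included, the members took 0.885% to 1.09% in the 6 libraries of the untransfected and shRing1b groups, against 0.622% to 0.710% in the other 18. On that denominator the 2 sets of libraries did not overlap, and neither did their shares of multi-aligned reads.

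**Figure D1:**
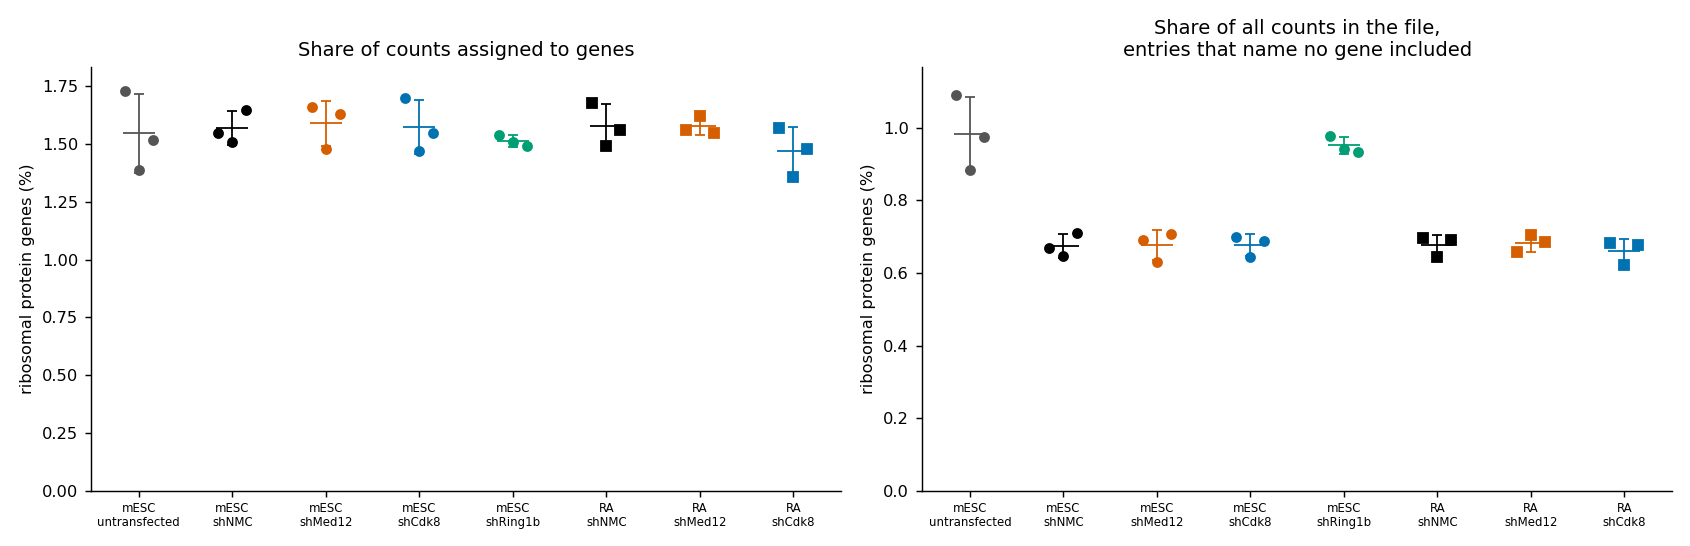
Share of the 84 ribosomal protein genes in each library (percent), of counts assigned to genes (left) and of all counts in the file (right). Points are libraries (circles mESC, squares RA) with the group mean and SD (n = 3), and the untransfected and shRing1b libraries stand above the others only in the right panel, at 0.885% to 1.09%.

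The counted level of a member went with how much of its sequence is its own. For each member the coding sequence was cut into all words of 50 bases, the read length, and the share of words found in no other annotated gene was taken, in the GENCODE M21 transcripts of build GRCm38. Genes that overlap a member's own locus were not counted as other genes, and 38 members share exon positions with such a gene. A word called a member's own can therefore still lie in an overlapping gene. The median share was 10.7%. It was 0 for 27 members, up to 20% for 31 and over 20% for 26, and 81 members shared a word with at least 1 annotated pseudogene, up to 120 of them for Rpl7a. In mESCs with shNMC the median level was 6.99 CPM for the members with no word of their own, 24.9 CPM for those with up to 20% and 314 CPM for those with more. Of these, 16, 11 and 2 stood under 10 CPM. Low counts of members such as Rps27 or Rpl11, with no word of their own, can therefore not be read as low mRNA levels, and levels were compared only among members that reads can tell apart by this measure.

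**Figure D2:**
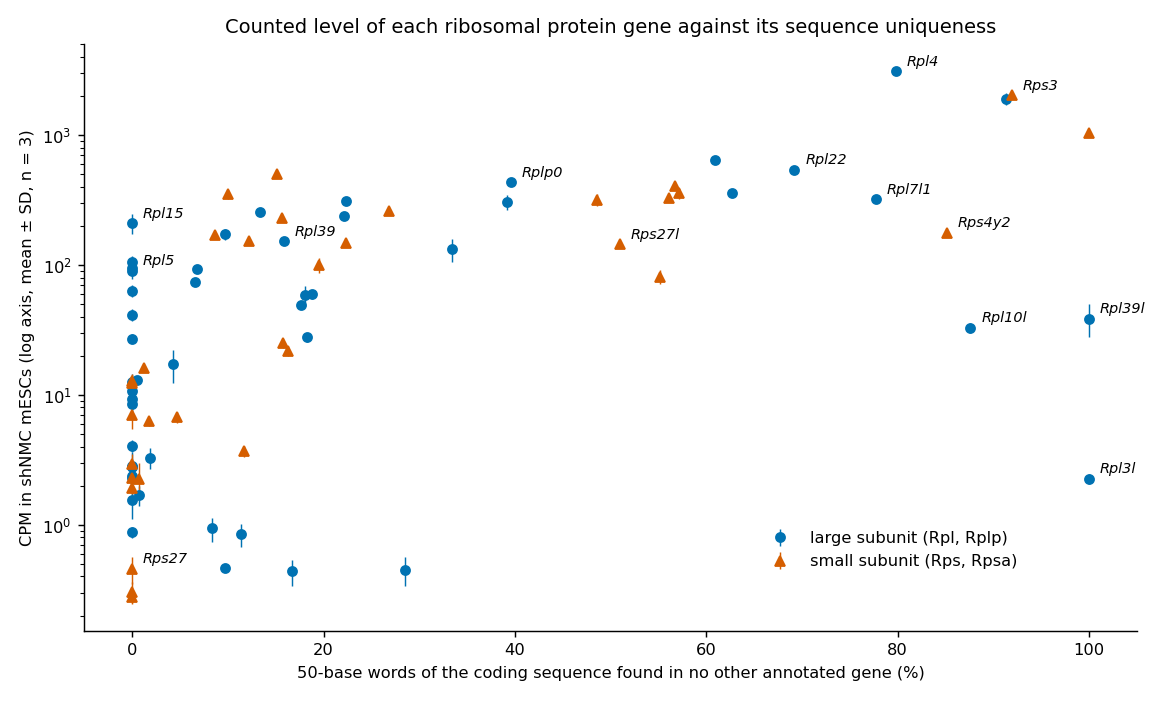
Level of each ribosomal protein gene in shNMC mESCs (CPM, log axis, mean ± SD, n = 3) against the percentage of its 50-base coding words found in no other annotated gene, genes that overlap its own locus aside. The 27 members at 0% have a median of 6.99 CPM and the 26 above 20% a median of 314 CPM, while the paralogues Rpl39l, Rpl10l and Rpl3l lie low at 87.6% to 100%.

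Among the 16 protein-coding members with at least 50% of words of their own, Rps3, Rpl4 and Rpl8 had the highest levels per kilobase of coding sequence in shNMC mESCs, at 2769 ± 105, 2476 ± 14 and 2462 ± 247 CPM per kb (SD, n = 3). This scale divides by all coding bases, while 91.9% of the words were its own for Rps3 and 79.8% for Rpl4, so no order is given among these 3. Rpl22, an RNA-binding protein on the outer face of the large subunit, stood at 1395 ± 34 CPM per kb. Of the 6 lowest, 5 were paralogues. Rps27l had 564 ± 21 CPM per kb, Rpl7l1 432 ± 25, Rpl39l 248 ± 73, Rpl10l 50.8 ± 4.5 and Rpl3l 1.86 ± 0.17. Rps21, a small subunit protein, was the sixth, at 321 ± 41 CPM per kb. Replicates of one group differed with a median coefficient of variation of 8.32% to 13.6% over the 83 members. Members of a library moved together: in shCdk8 mESCs, replicate 1 was the highest of its group for 71 of 83 members, so the members are not independent measurements of a condition.

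The paralogue pair on which several results turn is Rpl39 and Rpl39l, small proteins at the exit tunnel of the large subunit, Rpl39l being the form known from male germ cells. Their coding sequences from GENCODE M21 are shown because the reads have to tell them apart, and capitals mark the bases that differ.
Rpl39: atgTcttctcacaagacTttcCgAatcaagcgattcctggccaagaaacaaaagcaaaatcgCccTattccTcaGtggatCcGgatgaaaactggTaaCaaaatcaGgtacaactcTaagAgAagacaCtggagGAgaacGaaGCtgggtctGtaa
Rpl39l: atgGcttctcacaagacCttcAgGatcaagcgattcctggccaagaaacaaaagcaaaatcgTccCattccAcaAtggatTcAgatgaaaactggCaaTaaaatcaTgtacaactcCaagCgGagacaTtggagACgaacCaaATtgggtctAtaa
They differ at 23 of 156 positions (85.3% identical), and the longest identical run, 38 bases, is shorter than a read. For the other pairs the identity of the coding sequences was 84.8% for Rpl10 and Rpl10l, 76.1% for Rps27 and Rps27l, 73.2% for Rpl3 and Rpl3l, 66.9% for Rpl22 and Rpl22l1 and 49.8% for Rpl7 and Rpl7l1. Rpl39l, on chromosome 16, and Rpl3l, on chromosome 17, had 100% of their words to themselves and Rpl10l, on chromosome 12, 87.6%. Of their namesakes, Rpl39 had 15.9%, Rpl3 4.3% and Rpl10 0.0%. Few coding reads of the namesakes can therefore be placed, and a missing call for one of them makes a weak contrast with its paralogue.

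The annotated starts were read for the TOP motif. In RefSeq promoters (GRCm38.p6), which hold 63 of the members, a start on C followed by at least 4 C or T, read on the gene's strand, was found for 13 members (20.6%) and for 3.0% of 27025 genes. Within 5 bases of the start the shares were 46.0% and 21.2%. Each sequence below runs from 20 bases before to 10 bases after the start, with the pyrimidine run from the start in capitals. Rps6 (chr4:86857358-86857387, minus strand), Rps18 (chr17:33955656-33955685, minus strand) and Rplp2 (chr7:141447631-141447660, plus strand) are examples picked because they show the motif. Rpl39l (chr16:10170208-10170237, plus strand), Rpl10l (chr12:66284392-66284421, minus strand), Rpl3l (chr17:24727806-24727835, plus strand) and Rpl5 (chr5:107900508-107900537, plus strand) are the members that fell with shMed12 in both states, and none has it at the annotated base. Most members lack it there, among them Rpl7a, Rpl41, Rpsa and Rps16, which rose with shMed12 in mESCs. A link of the motif to shMed12 was not tested.
Rps6: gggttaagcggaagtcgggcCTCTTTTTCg
Rps18: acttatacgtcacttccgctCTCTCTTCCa
Rplp2: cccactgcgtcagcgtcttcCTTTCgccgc
Rpl39l: cctagctcccaggcctttccggatttccgg
Rpl10l: agaaatttggcctccattttgcggctggcg
Rpl3l: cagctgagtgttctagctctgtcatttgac
Rpl5: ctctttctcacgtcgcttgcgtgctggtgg
Annotated starts can lie some bases off the used ones, so a missing run says only that these letters are not at that base.

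No member was fully separated by the split between the 6 untransfected and shRing1b libraries and the other mESC libraries. So few genes were that 0 members is no result about the members. Of 83 members, 0 had all 6 libraries above, or all 6 below, the 9 shNMC, shMed12 and shCdk8 mESC libraries, against 45 of all 16280 tested genes (0.276%, of which 0.117% higher and 0.160% lower). The median log2 ratio of the 6 over the 9 was 0.02 for the members and 0.01 for all genes. By sequence it was 0.10 for members with no word of their own, 0.03 for those with up to 20% and -0.07 for those with more. The direct comparison of shNMC with untransfected mESCs crosses this split and gave 0 calls among the members with edgeR at an adjusted p under 0.05, and 0 with DESeq2 (background: 0.00614% of genes rose, 0% fell). At an unadjusted p under 0.05, 8 members were lower with shNMC and 0 higher. Rpl3 was one of the 8: it had 27.9, 27.3 and 24.5 CPM in untransfected cells and 15.4, 22.7 and 13.5 CPM with shNMC (log2 -0.63, SE 0.20, unadjusted p = 0.0058, adjusted p = 1). In 9 members the shNMC libraries lay below all untransfected ones and in 1 above, where 3.87% and 3.96% of genes did so. The median log2 change of shNMC against untransfected cells was -0.24 for members with no word of their own. It was -0.11 for those with up to 20% and 0.00 for those with more. Hairpin and set of libraries cannot be told apart here.

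Cells with shMed12 had less Rpl39l, Rpl10l and Rpl3l mRNA in both states. Counts for Rpl5 were also lower, and those for Rpl7a and Rpl41 slightly higher. Of the coding words only 6.6% are its own for Rpl7a and 0.0% for Rpl5 and Rpl41, so these counts may not follow their mRNA. In mESCs 4 members rose and 5 fell against shNMC, where 20.6% and 19.9% of all tested genes did (edgeR adjusted p under 0.05). With 10.8% of members called against 40.5% of genes, the share of members lay below the background. The members' median log2 change was 0.11 and that of all genes -0.01. In 8 members all shMed12 libraries lay above and in 8 below those of shNMC (28.5% and 29.4% of genes). After RA 7 rose and 5 fell, where 21.3% and 20.6% of genes did (14.5% of members and 41.9% of genes in all), 22 and 5 members had no overlap (30.2% and 29.6% of genes), and the medians were 0.11 and -0.00. In RNA of whole cultures, fewer cells of a kind and less RNA per cell cannot be told apart.

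Rpl39l had 34.0, 51.7 and 30.5 CPM with shNMC in mESCs and 19.7, 18.4 and 15.5 CPM with shMed12. After RA it had 53.9, 48.6 and 32.5 CPM with shNMC and 15.6, 16.0 and 14.8 CPM with shMed12. The shMed12 libraries lay below all shNMC libraries in either state. The log2 change was -1.12 (SE 0.22, adjusted p = 3.8e-04) in mESCs and -1.54 (SE 0.23, adjusted p = 1.1e-05) after RA. Rpl39 itself showed no call, at 152 ± 8.2 CPM with shNMC and 172 ± 24 CPM with shMed12 in mESCs, with overlapping libraries (log2 0.19, SE 0.17, adjusted p = 0.39).

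Rpl10l, the copy of Rpl10 known for its part in spermatogenesis, had 31.8, 36.0 and 30.5 CPM with shNMC and 13.8, 13.1 and 13.3 CPM with shMed12 in mESCs. After RA the values were 33.6, 31.7 and 28.1 CPM against 13.9, 15.9 and 13.8 CPM. All shMed12 libraries stood at 15.9 CPM or less and all shNMC libraries at 28.1 CPM or more. The log2 changes were -1.29 (SE 0.21, adjusted p = 3.2e-05) and -1.10 (SE 0.20, adjusted p = 1.9e-04). Rpl10, which sits near the catalytic core, was not called, at log2 0.32 (SE 0.18, adjusted p = 0.18) and 0.14 (SE 0.18, adjusted p = 0.56). No word of the Rpl10 coding sequence is its own.

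Rpl3l, the striated muscle form of Rpl3, was near the lower end of what was measured, with 2.35, 2.05 and 2.43 CPM with shNMC and 1.27, 1.23 and 1.19 CPM with shMed12 in mESCs. After RA it had 5.63, 5.38 and 4.36 CPM against 1.89, 1.75 and 2.40 CPM. The groups did not overlap in either state. Its log2 change was -0.89 (SE 0.20, adjusted p = 0.0011) in mESCs and -1.35 (SE 0.19, adjusted p = 6.3e-06) after RA. Rpl3 went the other way after RA (log2 0.61, SE 0.21, adjusted p = 0.021) and was not called in mESCs (log2 0.29, SE 0.20, adjusted p = 0.27). The Rpl3 call after RA was lost when shMed12 replicate 1 or 2, or shNMC replicate 2 or 3, was left out, with adjusted p up to 0.091.

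**Figure D3:**
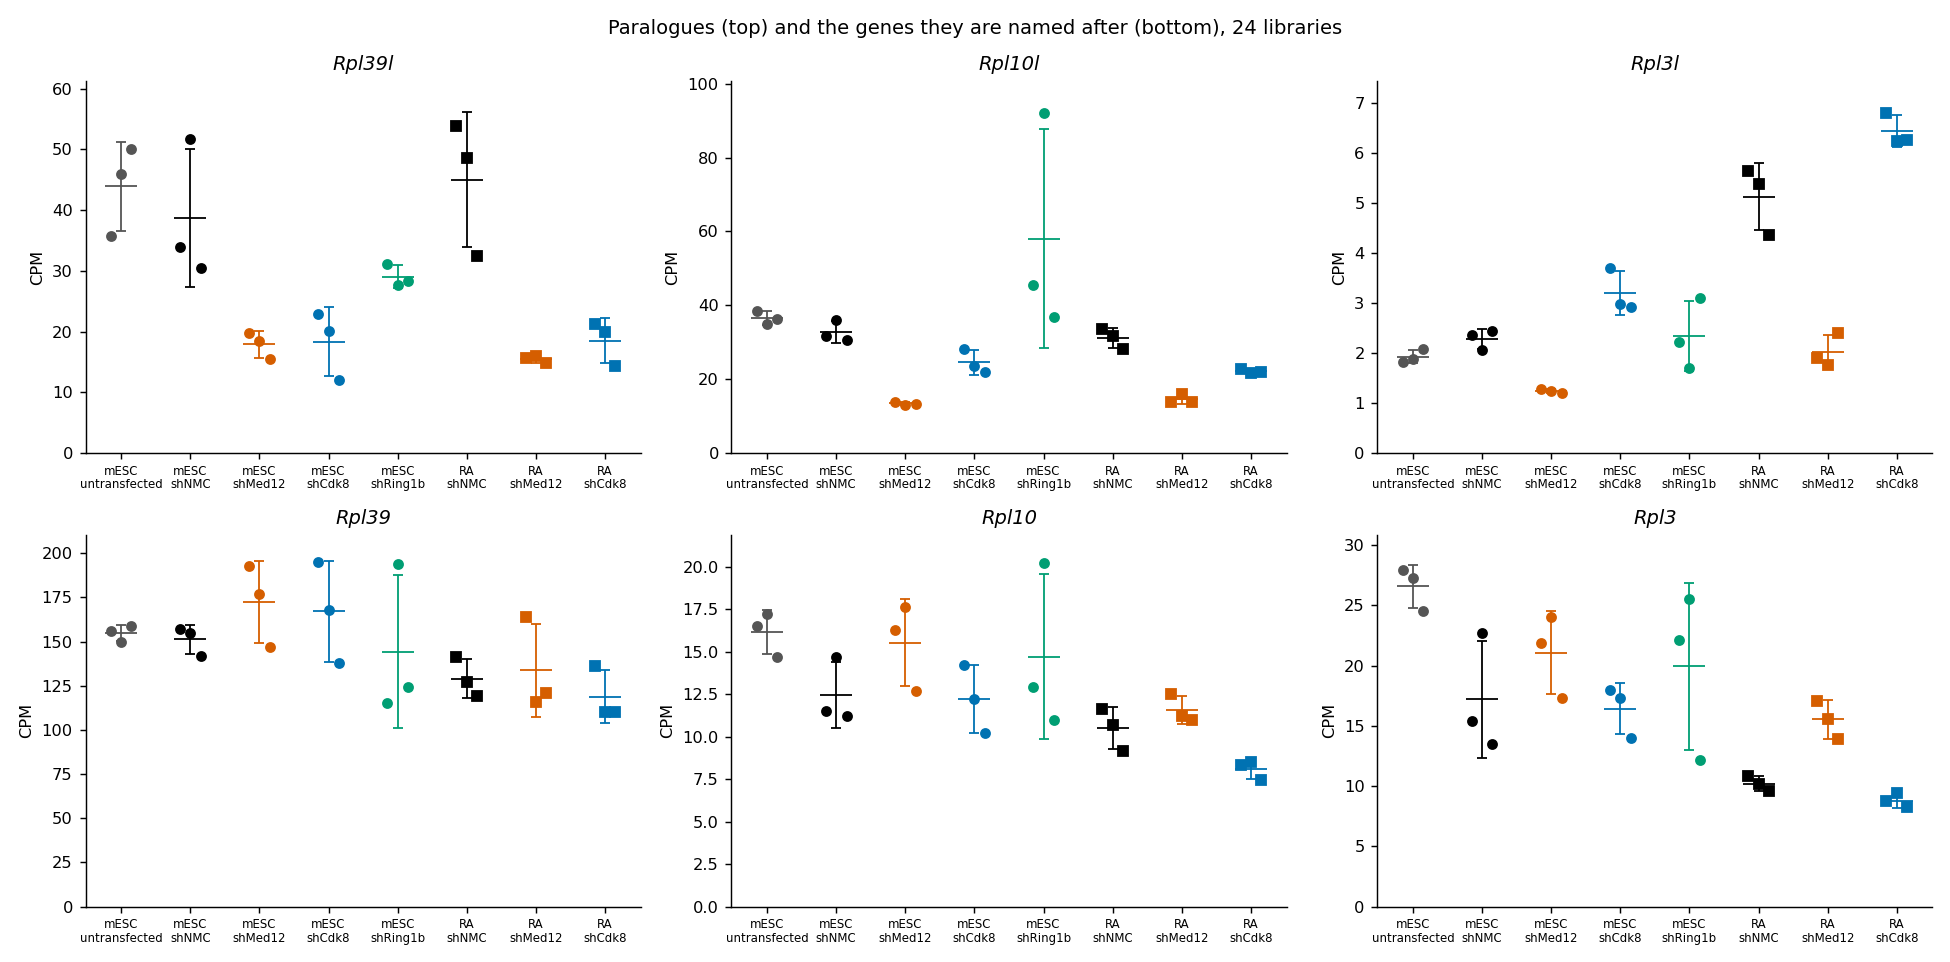
CPM of Rpl39l, Rpl10l and Rpl3l (top) and of Rpl39, Rpl10 and Rpl3 (bottom) in all 24 libraries, with group means and SD (n = 3; circles mESC, squares RA). Rpl39l is low with both shMed12 and shCdk8 (12.0 to 22.9 CPM), Rpl10l is lowest with shMed12 (13.1 to 15.9 CPM), and Rpl3l is higher after RA than in mESCs within each hairpin.

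Rpl5 forms, with Rpl11 and a ribosomal RNA, the complex that holds Mdm2 and so stabilises p53. It had 91.0, 103 and 78.2 CPM with shNMC and 64.5, 62.0 and 45.3 CPM with shMed12 in mESCs. After RA it had 105, 99.6 and 80.2 CPM against 50.2, 44.9 and 48.0 CPM, so no library overlapped. The log2 changes were -0.67 (SE 0.17, adjusted p = 0.0030) and -0.99 (SE 0.17, adjusted p = 6.8e-05). No 50-base word of the Rpl5 coding sequence is its own, and Fam69a, a gene chosen after its values were seen, overlaps its exons on the opposite strand. Fam69a fell too (log2 -0.40, SE 0.15, adjusted p = 0.038 in mESCs and -0.55, SE 0.15, adjusted p = 0.0050 after RA). The library protocol keeps strand, but the strand setting of the counting is not given, so reads of the 2 genes may not be told apart. Rpl11, with no coding word of its own either, changed in the other direction in these counts after RA, from 2.31, 2.06 and 1.83 CPM to 3.80, 3.24 and 3.34 CPM (log2 0.74, SE 0.19, adjusted p = 0.0037). In mESCs it was not called (log2 0.34, SE 0.19, adjusted p = 0.16).

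The 4 rises in mESCs had log2 changes of 0.26 to 0.55. Rpl7a had 70.4, 78.4 and 72.6 CPM with shNMC and 88.3, 84.1 and 94.2 CPM with shMed12 in mESCs, a log2 change of 0.27 (SE 0.08, adjusted p = 0.0073) with no overlap, and 0.27 again after RA (SE 0.08, adjusted p = 0.0066). Rpl41, the smallest ribosomal protein, rose by 0.26 (SE 0.10, adjusted p = 0.046) and 0.40 (SE 0.10, adjusted p = 0.0035). Rpsa, the laminin receptor protein of the small subunit, rose in mESCs from 16.1 ± 0.28 to 20.3 ± 1.1 CPM (log2 0.34, SE 0.10, adjusted p = 0.0075) and was not called after RA (log2 0.17, SE 0.10, adjusted p = 0.16). Rps16 rose in mESCs although its libraries overlapped (2.31 ± 0.50 to 3.40 ± 0.75 CPM, log2 0.55, SE 0.21, adjusted p = 0.042). In mESCs the call of Rpl41 was lost on leaving out replicate 1 or 3 of shMed12, or 1 or 2 of shNMC (adjusted p up to 0.12). That of Rps16 was lost on leaving out replicate 1 or 2 of shMed12, or 1 or 3 of shNMC (adjusted p up to 0.16). Without shMed12 replicate 1 or shNMC replicate 1, 2 members rose in mESCs in place of 4.

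After RA the other rises were Rps27 (log2 0.96, SE 0.37, adjusted p = 0.043), Rpl28 (0.60, SE 0.22, adjusted p = 0.033) and Rplp0 (0.31, SE 0.11, adjusted p = 0.026), the anchor of the ribosomal stalk. Rps27 was counted at 0.149 to 0.784 CPM in these libraries. With total gene counts in place of TMM these 3 missed the threshold, at adjusted p = 0.057, 0.052 and 0.066, and 4 members rose, where 18.1% of genes did. The call of Rpl28 was also lost without any 1 of the 6 libraries, that of Rplp0 on leaving out replicate 2 or 3 of shMed12, or 1 or 2 of shNMC, and that of Rps27 on leaving out replicate 1 or 2 of shMed12, or 3 of shNMC, or without the filter on low counts. Without shMed12 replicate 2, 3 members rose, and without shNMC replicate 2 or 3, 4 did. The remaining falls were Rps4y2 in mESCs (log2 -0.30, SE 0.10, adjusted p = 0.021), which RefSeq lists under Rps4l as a transcribed pseudogene, and Rpl15 after RA (log2 -0.42, SE 0.16, adjusted p = 0.047). The Rpl15 libraries overlapped, at 255, 258 and 190 CPM with shNMC and 192, 170 and 165 CPM with shMed12. The call of Rpl15 was lost on leaving out replicate 2 or 3 of shMed12, or 1 or 2 of shNMC (adjusted p up to 0.15), and that of Rps4y2 on leaving out replicate 1 or 2 of shMed12, or 3 of shNMC (adjusted p up to 0.17). The opposite-strand neighbour of Rpl15, Nkiras1, also chosen after its values were seen, fell (log2 -0.38, SE 0.11, adjusted p = 0.0073).

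By sequence class, falls and rises were spread as follows, with no test of the difference. In mESCs the members with over 20% of words of their own gave 0 rises and 4 falls among 26, and the other 57 gave 4 rises and 1 fall, which was Rpl5. After RA the counts were 1 and 3 among the 26 and 6 and 2 among the 57. Markers of other cells also differed with shMed12. The summed level of 10 fibroblast markers was 281 to 350 CPM in the shMed12 groups of both states and 16.2 to 54.3 CPM in the other groups. That of 8 trophectoderm markers in the files was 550 to 854 CPM against 20.1 to 99.3 CPM. Of the 10 fibroblast markers 6 exceeded 1 CPM with shMed12 and 3 to 5 in the other groups. With shMed12, 1 was at 0 in mESCs and 0 after RA. Of the 8 trophectoderm markers 7 exceeded 1 CPM with shMed12 and 3 to 6 in the other groups, and 0 were at 0. The 8 extraembryonic endoderm markers went the other way in mESCs, at 29.2 to 34.8 CPM with shMed12 and 43.4 to 58.2 CPM with shNMC. After RA their groups overlapped, at 64.1 to 71.2 and 65.3 to 87.8 CPM. The 10 pluripotency markers summed to 3939 to 4188 CPM with shMed12 and 6024 to 6062 CPM with shNMC in mESCs, and to 2118 to 2217 and 2526 to 2883 CPM after RA. The 6 RA response genes summed to 23.0 to 25.1 and 70.7 to 90.2 CPM in mESCs, and to 801 to 866 and 1364 to 1947 CPM after RA. Both sums were lower with shMed12 in either state, without overlap. The part of these markers in the members' changes was not tested.

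Cells with shCdk8 had less Rpl39l in both states, and lower counts for Rpl6, of whose coding words only 6.8% are its own. In mESCs 0 members rose and 2 fell, where 2.24% and 1.42% of genes did with TMM and 3.56% and 0.977% with total gene counts (2.41% of members and 3.66% of genes called in all with TMM). No overlap was found for 1 member above and 9 below shNMC (17.2% and 15.8% of genes). After RA 0 rose and 4 fell, where 4.10% and 3.64% of genes did (4.82% of members and 7.73% of genes in all), and 1 and 18 members had no overlap (18.7% and 18.2%). The median log2 change was -0.05 in mESCs and -0.15 after RA, and 0.00 and -0.00 over all genes. The pluripotency markers summed to 5263 to 5437 CPM with shCdk8 in mESCs and 1882 to 2245 CPM after RA, below shNMC in both states. The extraembryonic endoderm markers summed to 70.6 to 100 CPM in mESCs and 96.6 to 134 CPM after RA, above shNMC in both states. The part of either list in the members' changes was not tested.

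Rpl39l had 22.9, 20.1 and 12.0 CPM with shCdk8 in mESCs and 21.3, 19.9 and 14.3 CPM after RA, below all shNMC libraries of the same state given above. The log2 changes were -1.08 (SE 0.22, adjusted p = 0.0091) and -1.28 (SE 0.22, adjusted p = 0.0012). In mESCs the call was lost without shCdk8 replicate 3 or shNMC replicate 2 (adjusted p up to 0.066). Rpl39 was not called, at log2 0.14 (SE 0.17, adjusted p = 0.72) and -0.12 (SE 0.17, adjusted p = 0.72). Rpl10l was 24.5 ± 3.3 CPM with shCdk8 against 32.8 ± 2.9 CPM in mESCs, without overlap and short of the threshold (log2 -0.42, SE 0.20, adjusted p = 0.28). After RA it had 22.7, 21.7 and 21.9 CPM with shCdk8, again below all shNMC libraries and not called (log2 -0.49, SE 0.20, adjusted p = 0.14). With only the libraries compared in the fit, Rpl10l fell in both states (log2 -0.42, adjusted p = 0.020 and -0.50, adjusted p = 0.0081). Rpl3l was 3.20 ± 0.43 against 2.27 ± 0.20 CPM, higher in 3 of 3 libraries and not called (log2 0.49, SE 0.19, adjusted p = 0.16).

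Rpl6, an early-assembling protein of the large subunit, had 93.0, 94.9 and 94.2 CPM with shNMC and 72.7, 58.9 and 63.2 CPM with shCdk8 in mESCs. After RA it had 90.6, 72.9 and 75.4 CPM against 49.9, 42.5 and 51.8 CPM. The shCdk8 libraries lay apart in both states, and the call held under the 13 alternatives run in each state. Only 6.8% of the Rpl6 coding words are its own, and no alternative changed how reads were placed. The log2 changes were -0.53 (SE 0.10, adjusted p = 0.0035) and -0.73 (SE 0.10, adjusted p = 8.2e-05). With shMed12 Rpl6 was not called, at log2 -0.11 (SE 0.10, adjusted p = 0.40) and 0.02 (SE 0.10, adjusted p = 0.90). The other falls after RA were Rpl23 (log2 -0.30, SE 0.07, adjusted p = 0.014) and Rpl12, part of the stalk base (log2 -0.37, SE 0.11, adjusted p = 0.044). The call of Rpl12 was lost without any 1 of the 6 libraries, with total gene counts and without the filter on low counts (adjusted p up to 0.20), and that of Rpl23 without RA shCdk8 replicate 2 or RA shNMC replicate 1 (adjusted p up to 0.098). With the replicate number as a block 6 members fell after RA, where 5.04% of genes did. Without RA shCdk8 replicate 2 or RA shNMC replicate 1, 2 fell, and in mESCs without shCdk8 replicate 3 or shNMC replicate 2, 1 fell.

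**Figure D4:**
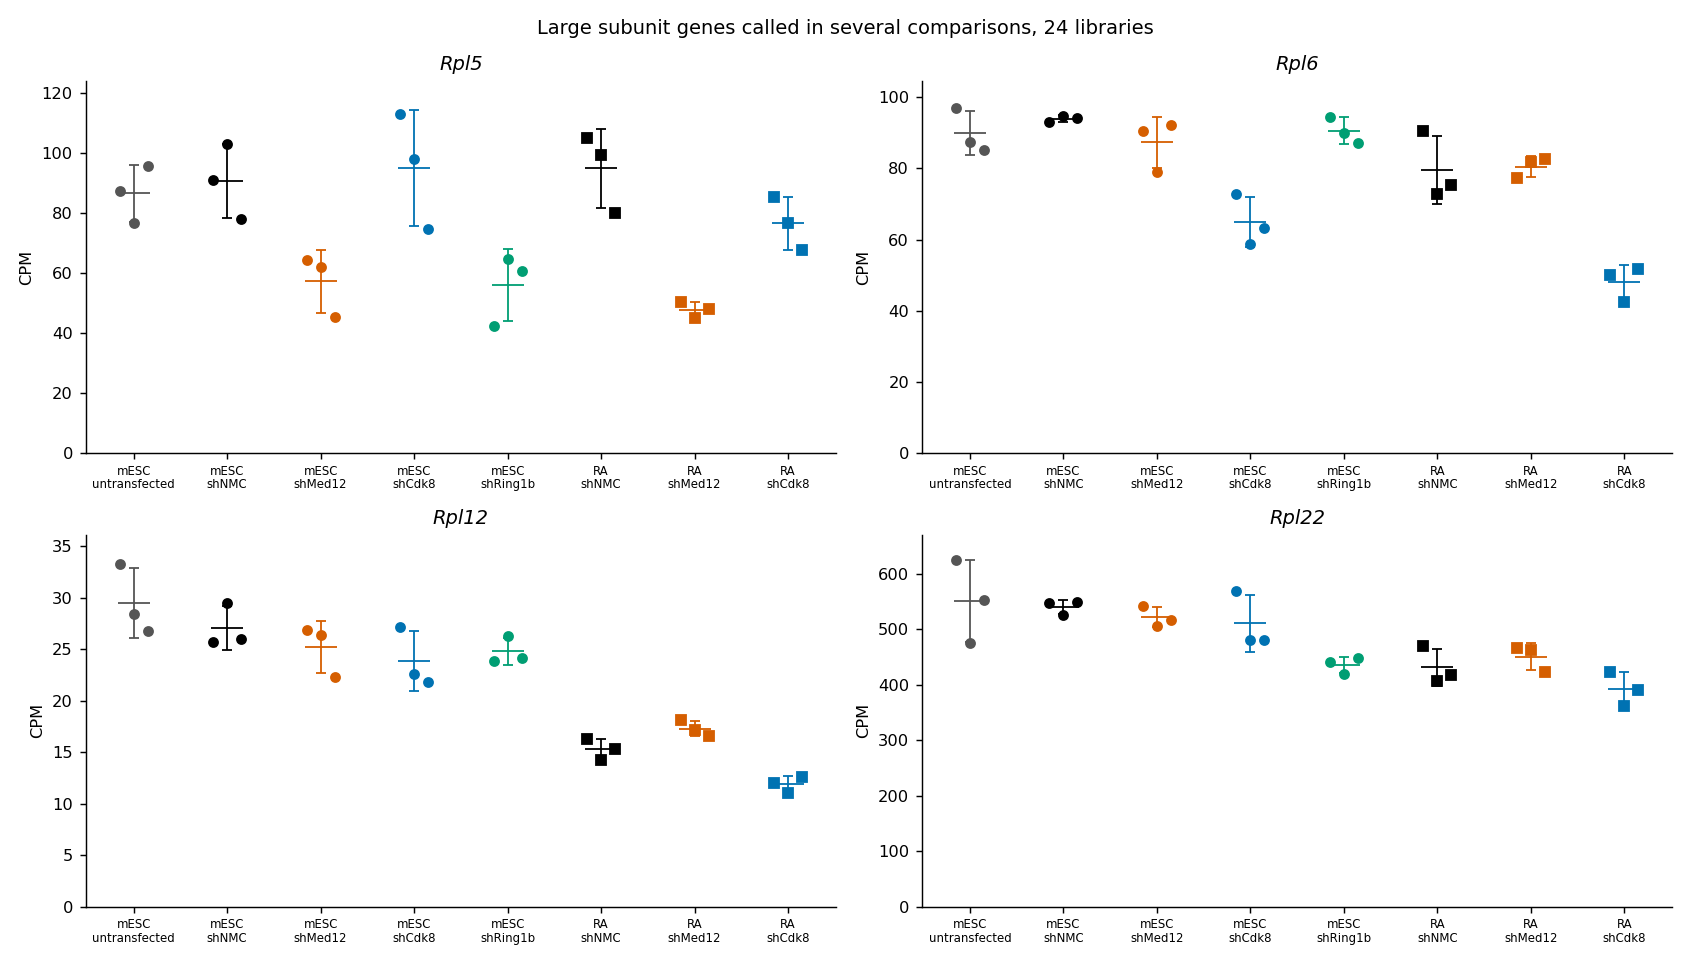
CPM of Rpl5, Rpl6, Rpl12 and Rpl22 in all 24 libraries with group means and SD (n = 3; circles mESC, squares RA). Rpl5 is low with shMed12 and shRing1b, Rpl6 with shCdk8 (42.5 to 72.7 CPM), and Rpl12 in the 9 RA libraries (11.0 to 18.1 CPM) below all mESC libraries.

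With shRing1b against untransfected mESCs 1 member rose and 4 fell, where 9.68% and 5.42% of genes did with TMM and 12.5% and 2.75% with total gene counts (6.02% of members and 15.1% of genes called in all with TMM). In 0 members all shRing1b libraries lay above and in 15 below the untransfected ones (8.52% and 7.84% of genes). Rpl5 had 87.4, 76.7 and 95.7 CPM in untransfected cells and 42.2, 64.7 and 60.8 CPM with shRing1b (log2 -0.63, SE 0.17, adjusted p = 0.015), without overlap. Fam69a was not called here (log2 0.05, SE 0.15, adjusted p = 0.85). Rpl22 had 624, 475 and 552 CPM against 440, 419 and 447 CPM (log2 -0.34, SE 0.09, adjusted p = 0.016). Rpl23 fell by 0.27 on the log2 scale (SE 0.07, adjusted p = 0.019). The 3 shRing1b libraries lay below all untransfected ones for Rpl5, Rpl22 and Rpl23.

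Rpl10l rose with shRing1b, from 38.5, 34.8 and 36.4 CPM to 45.4, 92.0 and 36.8 CPM (log2 0.67, SE 0.20, adjusted p = 0.031). Replicate 2 stood far above the other shRing1b libraries, and the groups overlapped. In that library 8 extraembryonic endoderm markers summed to 536 CPM, against 94.9 and 37.9 CPM in replicates 1 and 3; their part in the value was not tested. Without shRing1b replicate 3, whose Rnf2 level goes against its label, the log2 changes were 0.91 for Rpl10l (adjusted p = 6.5e-04), -0.69 for Rpl5 (0.010), -0.36 for Rpl22 (0.016) and -0.23 for Rpl23 (0.040).

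None of the 5 calls was made when the fit held only the 6 libraries compared, with adjusted p = 0.46 for Rpl10l and 0.28 for Rpl5. In that fit 0% of all genes rose and 0% fell. The fall of Rpl5 was also lost without untransfected replicate 3 or shRing1b replicate 1, when 1 member fell in place of 4, and the rise of Rpl10l without untransfected replicate 2 or 3 or shRing1b replicate 2. The pluripotency markers summed to 5395 to 5688 CPM with shRing1b and 5712 to 6117 CPM in untransfected cells, and the trophectoderm markers to 45.2 to 99.3 and 20.5 to 30.7 CPM; their part was not tested. The fall of Rpl22 was lost without untransfected replicate 1, and that of Rpl23 without untransfected replicate 3 or shRing1b replicate 1. With total gene counts 1 member rose and 1 fell, Rpl10l and Rpl5. Of the 83 members 76 had a log2 change below 0, with a median of -0.16, against 0.02 over all genes. With total gene counts these medians were -0.08 and 0.11.

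After RA, ribosomal protein mRNAs stood lower relative to the median gene, while their share of gene counts overlapped between RA and mESC libraries of each line. RA was given as LIF was withdrawn, so the 2 cannot be told apart. The summed level of 6 RA response genes was 23.0 to 113 CPM in mESCs and 801 to 1947 CPM after RA. In shNMC cells 1 member rose and 19 fell, where 27.3% and 24.1% of genes did. In shMed12 cells 1 rose and 7 fell (background 19.6% and 17.5%), and in shCdk8 cells 1 rose and 53 fell (26.7% and 25.1%). Called in either direction were 24.1%, 9.64% and 65.1% of the members and 51.4%, 37.1% and 51.7% of genes. RA libraries lay above all mESC libraries in 1 member of each line and below them in 40, 23 and 52 (34.4%, 31.1% and 34.8% of genes above, 30.7%, 26.8% and 31.9% below). The median log2 changes of the members were -0.25, -0.21 and -0.37, and those of all genes 0.02, 0.03 and 0.01. TMM set the 9 RA libraries (factors 1.04 to 1.14) apart from the 15 mESC libraries (0.899 to 0.988). With total gene counts in place of TMM, the members' medians were 0.00, -0.06 and -0.14 and those of all genes 0.27, 0.18 and 0.24. On that scale 3 members rose and 3 fell in shNMC cells, 1 and 1 in shMed12 cells and 1 and 10 in shCdk8 cells, while 41.6%, 29.4% and 39.4% of genes rose and 11.5%, 10.2% and 12.9% fell. Leaving out the TMM factor moves all genes of a library alike, so it moves both medians together and is no check on the distance between them. The number of calls depended on the scale.

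**Figure D5:**
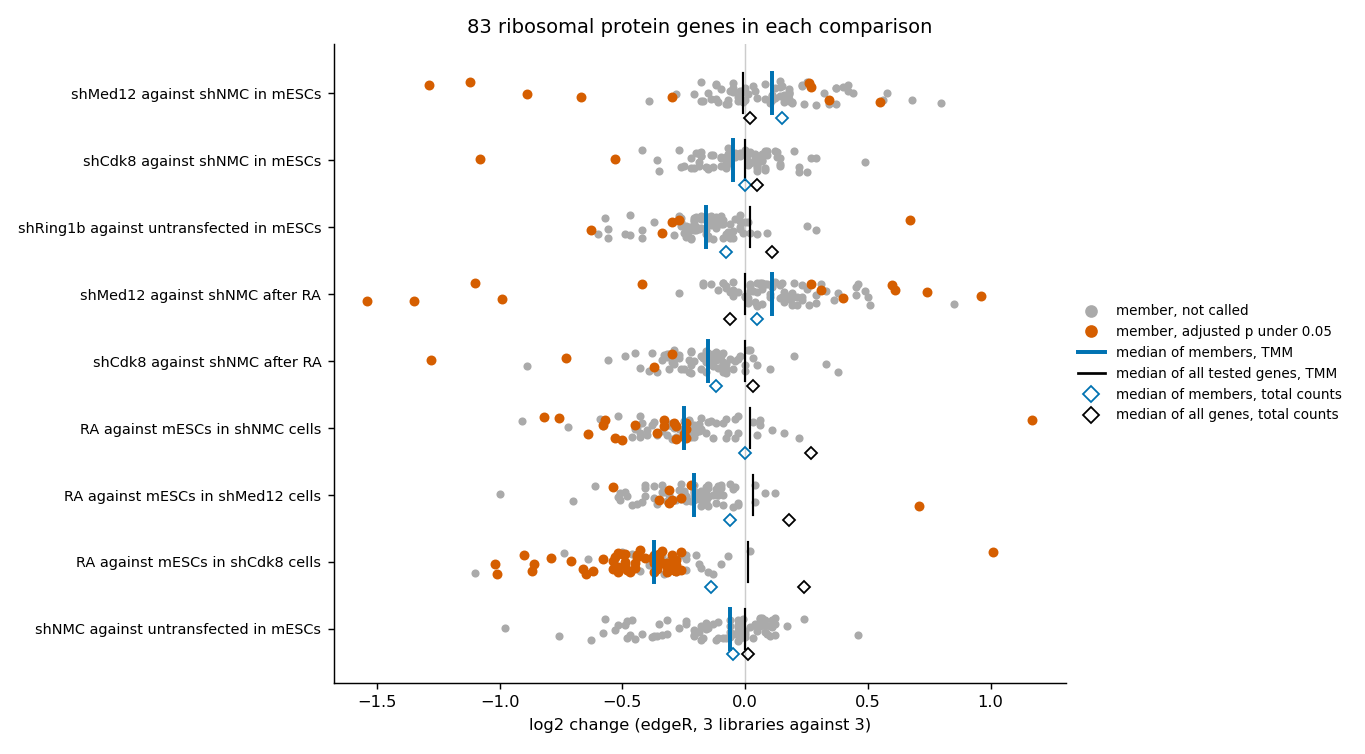
log2 changes of the 83 tested members in each comparison of 3 libraries against 3; orange points passed an edgeR adjusted p under 0.05. Bars mark the medians of the members (blue) and of all 16280 genes (black) with TMM, diamonds the same with total gene counts: in the RA comparisons both medians move right together, by about as much, since the scaling shifts all genes of a library alike.

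Rpl12, Rpl7l1, Rpl3l and Rpl3 changed with RA in shNMC and shCdk8 cells under both scalings. Rpl12 had 25.7, 29.5 and 26.0 CPM in shNMC mESCs and 16.3, 14.2 and 15.3 CPM after RA (log2 -0.82, SE 0.11, adjusted p = 2.7e-06; -0.57 and adjusted p = 2.1e-04 with total gene counts). In shMed12 cells it fell by 0.54 on the log2 scale (SE 0.11, adjusted p = 5.8e-04) and in shCdk8 cells by 1.01 (SE 0.11, adjusted p = 2.0e-07). Every RA library lay below every mESC library. Lrsam1 overlaps exons of Rpl12 on the opposite strand, and no word of the Rpl12 coding sequence is its own.

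Rpl7l1, a paralogue of Rpl7 at work in ribosome assembly, had 319, 339 and 302 CPM in shNMC mESCs and 217, 215 and 216 CPM after RA. The log2 change was -0.57 (SE 0.08, adjusted p = 9.2e-06), and -0.32 with total gene counts (adjusted p = 0.0016). In shMed12 cells it was -0.35 (SE 0.08, adjusted p = 0.0025), and -0.19 with total gene counts (adjusted p = 0.051). In shCdk8 cells it was -0.49 (SE 0.08, adjusted p = 4.7e-05). Rpl7 had a log2 change of -0.24 in shNMC cells with TMM (SE 0.09, adjusted p = 0.022) and 0.01 with total gene counts, where it was not called (adjusted p = 0.94). The Rpl7 call was also lost without RA shNMC replicate 2 or 3 or mESC shNMC replicate 1 or 2, and with only the libraries compared (adjusted p = 0.051).

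With TMM, Rpl3l was the 1 member that rose in each line. It went from 2.27 ± 0.20 to 5.12 ± 0.67 CPM in shNMC cells (log2 1.17, SE 0.19, adjusted p = 2.4e-05), from 1.23 ± 0.041 to 2.01 ± 0.34 CPM in shMed12 cells (log2 0.71, SE 0.20, adjusted p = 0.0074) and from 3.20 ± 0.43 to 6.43 ± 0.32 CPM in shCdk8 cells (log2 1.01, SE 0.18, adjusted p = 1.0e-04). RA libraries lay above the mESC libraries in each line. In shMed12 cells the call was lost without RA shMed12 replicate 3 (adjusted p = 0.050). Rpl3 fell in shNMC cells from 15.4, 22.7 and 13.5 to 10.8, 10.2 and 9.57 CPM (log2 -0.76, SE 0.21, adjusted p = 0.0041) and in shCdk8 cells by 0.90 on the log2 scale (SE 0.21, adjusted p = 0.0010). In shNMC cells the Rpl3 call was lost without mESC replicate 2 (adjusted p = 0.062).

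In shNMC cells the next largest falls were those of Rps12 (log2 -0.64, SE 0.19, adjusted p = 0.0085) and Rpl9 (-0.58, SE 0.20, adjusted p = 0.019). Both missed the threshold with total gene counts (adjusted p = 0.10 and 0.18), as Rps12 did without mESC replicate 2 and Rpl9 without RA replicate 2 or 3 or mESC replicate 1 or 2. In shMed12 cells Rps15a and Rps24, small subunit proteins, each fell by 0.31 on the log2 scale (SE 0.10 and 0.12, adjusted p = 0.021 and 0.043). With total gene counts their values were -0.16 and -0.15 (adjusted p = 0.23 and 0.32), and both calls were lost without RA replicate 2 or 3 or mESC replicate 1 or 2. In shCdk8 cells Rps13 went from 2.76, 2.53 and 1.73 to 0.976, 1.44 and 1.02 CPM (log2 -1.02, SE 0.33, adjusted p = 0.012) and Rpl36a from 1.63 ± 0.44 to 0.881 ± 0.25 CPM (log2 -0.87, SE 0.27, adjusted p = 0.011). The call of Rps13 was lost without mESC replicate 1 (adjusted p = 0.053) and that of Rpl36a without RA replicate 3 or mESC replicate 1 (adjusted p up to 0.074). Rps13 has 0.7% of words of its own and Rpl36a none. Falls came from both subunits: 32 of 47 large subunit members, 20 of 33 small subunit members and 1 of the 3 stalk proteins fell in shCdk8 cells.

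The count of falls with RA moved with single libraries. In shNMC cells it was 8 without RA replicate 2, 11 without RA replicate 3 and 11, 9 and 12 without mESC replicates 1, 2 and 3. In shMed12 cells it was 12, 3 and 3 without RA replicates 1, 2 and 3 and 3 and 14 without mESC replicates 1 and 3, and in shCdk8 cells 29 without RA replicate 2 and 16 without mESC replicate 1. These fits are given without the share of all genes called, so the moves are not read as a trait of the members. The larger count in shCdk8 cells was not itself tested. Single members were tested for an interaction with shNMC as the control, which called so few genes that 0 members does not bear on that count. The shCdk8 effect after RA minus that in mESCs gave 0 members by edgeR and 0 by DESeq2 (2 at an unadjusted p under 0.05, both lower; background 0.0369% of genes, 0.0307% higher and 0.00614% lower), with a median of -0.12 against -0.02 over all genes. Of the 83 members 70 lay below 0 and 13 above. For Rpl38, a small protein of the large subunit that fell with RA in shCdk8 cells (log2 -0.86, SE 0.22, adjusted p = 0.0030), the difference was -0.72 (SE 0.32, adjusted p = 1). The same difference for shMed12 gave 0 members by edgeR and 0 by DESeq2 (0 at an unadjusted p under 0.05; background 5.04%, with 1.74% higher and 3.30% lower), with medians of 0.04 and 0.00. Over all genes the shMed12 difference gave 283 higher and 537 lower calls with TMM and 183 and 728 with total gene counts, and the shCdk8 difference 5 and 1, and 4 and 3.

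Several well-known members showed no call in the model of all 24 libraries. Rplp1 and Rplp2, the acidic stalk proteins, stood at 307 ± 40 and 132 ± 26 CPM in shNMC mESCs and had no call in any of the 11 comparisons. With only the libraries compared in the fit, both fell with RA in shNMC cells (Rplp1 log2 -0.30, adjusted p = 0.023; Rplp2 log2 -0.37, adjusted p = 0.022). In the model of all libraries no call was made either for Rps6, the target of S6 kinase (12.4 ± 1.8 CPM), or Rps19, the gene most often mutated in Diamond-Blackfan anaemia (99.7 ± 13 CPM). Only 0.0% and 19.5% of their coding words are their own, so a missing call says little about their mRNA. Rps27l, a paralogue known as a p53 target, had no call either, at 144 ± 5.3 CPM in shNMC mESCs and 169 ± 17 CPM with shMed12 (log2 0.23, SE 0.15, adjusted p = 0.23). It rose in that comparison with only the libraries compared (log2 0.24, adjusted p = 0.023). In the model of all libraries Rpl22l1 was called in 1 comparison, RA in shCdk8 cells (log2 -0.52, SE 0.21, adjusted p = 0.045), and with the replicate number as a block it missed the threshold (adjusted p = 0.056), as it did in 9 of 13 alternatives. With only the libraries compared it also fell with RA in shMed12 cells (log2 -0.32, adjusted p = 0.035). Rpl10a fell with RA in shNMC cells (log2 -0.50, SE 0.16, adjusted p = 0.014; lost without RA replicate 1 or mESC replicate 2, and with total gene counts, at -0.25 and adjusted p = 0.21) and in shCdk8 cells (-0.62, SE 0.16, adjusted p = 0.0031; -0.40 and 0.047 with total gene counts).

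Genes of ribosome assembly had lower medians after RA than the ribosomal proteins. The counts below stand beside the falls of all genes with RA, which were 24.1%, 17.5% and 25.1% in shNMC, shMed12 and shCdk8 cells. With total gene counts 11.5%, 10.2% and 12.9% of all genes fell. Of 48 assembly factors, 48 fell in shNMC cells, 45 in shMed12 cells and 48 in shCdk8 cells, with median log2 changes of -0.73, -0.57 and -0.84. With total gene counts 39, 35 and 45 still fell, with medians of -0.48, -0.41 and -0.61. Nolc1, a nucleolar chaperone, had a log2 change of -1.14 (SE 0.10, adjusted p = 1.4e-08) in shNMC cells, and Wdr12, needed for large subunit maturation, by -0.91 (SE 0.07, adjusted p = 1.8e-09). Of 15 RNA polymerase I genes 11, 8 and 11 fell, led by Rrn3, an initiation factor of that polymerase (log2 -1.07, SE 0.09, adjusted p = 4.3e-09 in shNMC cells), and 7, 5 and 9 with total gene counts. Of 37 translation factors 28, 21 and 31 fell (13, 6 and 15 with total gene counts). Mitochondrial ribosomal protein genes, a separate set of 75 tested, gave medians of -0.25, -0.21 and -0.37, equal to those of the cytosolic members to 2 decimals, with 38, 31 and 52 falls (13, 11 and 24 with total gene counts).

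With shMed12 after RA, 14 of 37 translation factors rose and 3 fell, with a median log2 change of 0.15, where 21.3% of all genes rose and 20.6% fell. Eif4b, which assists the mRNA helicase, rose by 0.61 (SE 0.08, adjusted p = 2.3e-06), and Eef1d, of the elongation factor complex, by 0.56 (SE 0.08, adjusted p = 8.2e-06). In mESCs 4 rose and 1 fell, both shares below the 20.6% and 19.9% of all genes. The fall was that of Eif1, a guard of start codon choice (log2 -0.49, SE 0.11, adjusted p = 0.0018). Of 12 p53 pathway genes 1 rose with shMed12 in mESCs and 2 after RA, and 0 fell, again below the shares of all genes. The rises were Phlda3, at 0.93 (SE 0.27, adjusted p = 0.0091) and 1.51 (SE 0.28, adjusted p = 1.6e-04), and, after RA, Bbc3 at 0.90 (SE 0.27, adjusted p = 0.011). Of 11 genes that control TOP mRNAs, Mtor and Rps6kb2 fell with shMed12 in mESCs (log2 -0.39, SE 0.10, adjusted p = 0.0033 and -0.33, SE 0.11, adjusted p = 0.023), a share near the 19.9% of all genes. With shCdk8 after RA 14 of 48 assembly factors fell and 0 rose, where 3.64% and 4.10% of genes did with TMM. With total gene counts 14 fell and 0 rose as well, where 2.90% and 4.77% of genes did.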

How the data were processed

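The deposited values are counts of reads per gene symbol that the authors made, 1 file per library with 3 libraries in each of 8 groups. The submitters' processing notes name bcl2fastq 1.8.4, STAR 2.3.1z13, SAMtools 1.2, HTSeq 0.6.1p1, DESeq2 1.6.3 and build mm9, without roles. How strand was set for counting, and which annotation was used, is not stated in the labels or notes used here. The 5 entries that name no gene stayed out of library sizes and tests. Of all counts, multi-aligned reads made up 20.0% to 21.7% in 6 libraries (untransfected, shRing1b) and 44.1% to 49.1% in 18, and reads outside annotated features 14.5% to 17.3% and 8.70% to 10.8%.

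One edgeR 4.0.16 quasi-likelihood model (R 4.3.3, limma 3.58.1) held all 24 libraries, with 1 coefficient per group, 16 residual degrees of freedom and a common biological coefficient of variation of 0.145. It tested 16280 genes left by edgeR's filter on low counts, with Benjamini-Hochberg adjustment over all of them within each of 11 comparisons and a threshold of 0.05. Depth set a floor of 3 counts at 0.0523 to 0.109 CPM per library; it covers counting error only. Within each group, replicates varied beyond counting error (mean chi-square per gene 7.17 to 126), so none was a copy. In counts simulated for shMed12 in mESCs over 15944 genes, 197 of 200 genes changed by a log2 of 1 were recovered (98.5%) and 4.8% of calls were false. Every simulated gene had the common variation, and genes with low counts were not among those changed. The rates therefore do not hold for members with few counts or smaller changes.

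Sequence shares and coding identities came from GENCODE M21 transcripts (GRCm38), which held all 84 members by name, and start windows from RefSeq (GRCm38.p6), which held 63. No other coordinates are given, since the files use mm9. Same-numbered replicates deviated together, with each correlation of deviations over 0.1, for RA shCdk8 with RA shNMC (0.475, 0.287 and 0.537) and with mESC shCdk8 (0.358, 0.169 and 0.371), but not in the other pairs of groups compared directly. RA shMed12 with RA shNMC missed it at replicate 2 (0.32, 0.0669 and 0.355). RA shNMC passed it with mESC shMed12 (0.29, 0.158 and 0.373) and mESC shCdk8 (0.356, 0.143 and 0.41), which were not compared directly. Whether the numbers pair libraries is thus not settled.

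Members named in the text were, in each comparison, up to 4 rises and 4 falls with the largest log2 changes, the paralogues with their namesakes, and Rplp0, Rplp1, Rplp2, Rpsa, Rpl5, Rpl11, Rps6, Rps19, Rpl10a and Rpl38. Values of some members that this rule names are not reported here; they remain in the counts and medians. Members, gene lists and markers were chosen with earlier results of these data known. Alternatives were DESeq2 1.42.0, median-ratio size factors, TMM without the members, no filter on low counts, a replicate block, only the libraries compared, shNMC in place of the untransfected control, each library left out and, added after seeing the data, total gene counts without a TMM factor. The fits with 1 library left out are given without the share of all genes called, so their counts of members have no background.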

Additional observations from a re-analysis of the deposited data

How the results depend on the processing

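Over the named members' calls, 781 values under an alternative kept their direction and their side of the threshold, 158 kept their direction and lost the call, and 2 reversed: Rpl6 and Rpl7 with RA in shNMC cells, both at 0.01 with total gene counts. That scaling, which leaves out the TMM factor, also changed counts of members called: 4 rises with shMed12 after RA, 1 fall with shRing1b, and for RA 3 rises and 3 falls in shNMC cells, 1 fall in shMed12 cells and 10 falls in shCdk8 cells. Of all genes 18.1% rose with shMed12 after RA and 2.75% fell with shRing1b on that scale, and the shares for RA are given above. With only the libraries compared in the fit there were 9 rises with shMed12 in mESCs and 13 after RA, 0 rises and 0 falls with shRing1b, and 32 and 26 falls with RA in shNMC and shMed12 cells. Of all genes, 26.9% and 26.8% rose with shMed12 in these fits, and 0% rose and 0% fell with shRing1b. With RA 28.2% and 25.3% of genes fell, so the standing of the members beside all genes depended on the fit. The replicate block gave 7 falls with shRing1b, 13 rises with shMed12 after RA, and 30 and 20 falls with RA in shNMC and shMed12 cells. Of all genes 6.77%, 22.9%, 26.0% and 19.5% did so under the block. In these comparisons not every correlation of same-numbered libraries passed 0.1. Where each did, the block changed no call beyond those given above and 55 falls in place of 53 with RA in shCdk8 cells, where 26.8% of genes fell. The cause was not tested.

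With 1 library left out, rises ranged from 2 to 5 and falls from 4 to 5 with shMed12 in mESCs, rises from 3 to 7 and falls from 4 to 6 with shMed12 after RA, falls from 1 to 2 with shCdk8 in mESCs and from 2 to 5 after RA, and rises from 0 to 1 and falls from 1 to 4 with shRing1b. With RA, falls ranged from 8 to 21 in shNMC cells, 3 to 14 in shMed12 cells and 16 to 49 in shCdk8 cells, and rises were 1, 0 to 1 and 1. Shares of all genes called are not given beside these ranges. The mean share of gene counts then ranged from 1.46% to 1.62% in untransfected cells, 1.53% to 1.6% with shNMC, 1.56% to 1.65% with shMed12, 1.51% to 1.63% with shCdk8 and 1.5% to 1.53% with shRing1b, and after RA from 1.53% to 1.62%, 1.55% to 1.59% and 1.42% to 1.52% with shNMC, shMed12 and shCdk8. With all entries of the file as denominator the mean shares were 0.982%, 0.675%, 0.677%, 0.678% and 0.952% in the same order of mESC groups, and 0.677%, 0.682% and 0.660% after RA.

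Over all genes, shCdk8 in mESCs gave 365 rises and 231 falls, and 1332 and 1002 with only the libraries compared, 652 and 499 with DESeq2, 580 rises with total gene counts and 380 falls with the replicate block. After RA shCdk8 gave 667 and 592, and 1522 and 1222 with only the libraries compared. The shRing1b counts were 1576 and 883, and 0 and 0 with only the libraries compared, with 447 falls under total gene counts. RA gave 4438 rises and 3925 falls in shNMC cells, and 6775 and 1878 with total gene counts, while falls went from 2850 to 1662 in shMed12 cells and from 4083 to 2093 in shCdk8 cells. The difference of shMed12 effects gave 283 and 537, and 709 and 1528 with only the libraries compared, with 508 rises under DESeq2. That of shCdk8 effects gave 5 and 1, and 23 and 15 with only the libraries compared, 18 and 9 with DESeq2, 8 and 3 with the block and 3 falls without the filter. Members with few reads of their own limit what these depths can show.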
